A study of Homo sapiens with 9 samples.

Results

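RNA of 32 genes of cholesterol synthesis, uptake, sterol sensing and efflux was compared in the human B-cell line BJAB, which the labels assign to Burkitt lymphoma. The genes were taken from the pathway itself, from the first condensation of acetyl-CoA units to the last sterol reductase, with the sensors, carriers and liver X receptor (LXR) genes around it. All 32 were found among the 57500 gene IDs counted in each of 9 libraries. The groups were cells stably transfected with the long isoform of TACI (TACI long, 3 libraries), cells stably transfected with the short isoform (TACI short, 3 libraries) and the parental line (control, 3 libraries), all untreated. TACI, encoded by TNFRSF13B, is a receptor on B cells for the cytokines BAFF and APRIL; the study asked what each isoform does to the transcripts of resting cells. The sample titles speak of transfection and the design text of transduction. No label says which promoter drove the introduced gene or whether a line was 1 clone, and no empty-vector line was analysed here. No label says that replicates were grown apart, so the p-values speak only of the scatter among the libraries sequenced, and that scatter may be technical.

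Cells build cholesterol from acetyl-CoA through mevalonate, the isoprenoid farnesyl diphosphate, squalene and a chain of sterols. The transcription factors SREBP-1 and SREBP-2 (genes SREBF1 and SREBF2) switch most of these enzymes on. While sterols are plentiful, INSIG proteins hold the SREBPs and their escort SCAP in the endoplasmic reticulum, and when sterols run low the complex moves to the Golgi, where the factors are cut free. The LXRs work the other way: they bind oxysterols and raise genes that export cholesterol or lower its uptake. In B cells, as in other lymphocytes, dividing cells draw on this pathway for membranes and for the isoprenoids that anchor small GTPases.

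Libraries held 40322136 to 50079203 counts. Levels are given in CPM, the gene's count over the library's total, scaled up for reading. TNFRSF13B had 691, 704 and 738 CPM in TACI long, 2964, 2965 and 2655 CPM in TACI short and 28.8, 15.2 and 14.6 CPM in control libraries. Its counts do not tell the isoforms apart, so isoform and amount of introduced RNA differ together. The 6 B-cell markers summed to 3295 ± 18.7 CPM in TACI long, 3009 ± 77.4 CPM in TACI short and 3732 ± 66.0 CPM in control (SD, n = 3 each). TACI short replicates 2 and 3 stood apart: 32882 and 32209 genes had at least 1 count there, against 24307 to 25938 in the other 7 libraries. In those replicates 12 myeloid markers summed to 129 and 125 CPM, against 28.9 CPM in TACI short replicate 1, 15.6 to 29.8 CPM in TACI long and 11.8 to 22.4 CPM in control. CSF1R, the marker with the highest level, had 20.3, 57.8 and 56.7 CPM in TACI short, 5.61 to 11.4 CPM in TACI long and 3.85 to 8.72 CPM in control libraries. CD163, a macrophage receptor, had 0.270, 3.87 and 4.11 CPM in TACI short, 0.394 to 1.02 CPM in TACI long and 0.326 to 0.689 CPM in control libraries. C1QB was at 0 in all 9 libraries and C1QA in 8, and MARCO was above 0 only in TACI short replicates 2 and 3, at 0.0248 and 0.0998 CPM. Of 9 myeloid markers tested, 5 were called higher in TACI short against control, where 31.5% of all genes were. In TACI long against control 0 were called higher, where 25.2% of all genes were. In bulk RNA, fewer cells that express a gene and less RNA per cell cannot be told apart.

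With TACI long, the pathway's RNA was lower almost throughout. Of 32 members, 25 fell, 3 rose and 4 were not called, where a call is an adjusted p under 0.05 in edgeR's quasi-likelihood test (Benjamini-Hochberg, over 16672 genes). Over all genes tested, 51.1% were called, 25.9% lower and 25.2% higher. The TACI long and control libraries did not overlap for 28 members and for 60.7% of all genes. At least 2-fold, 17 members fell and 0 rose, where 5.99% of all genes fell and 3.12% rose. The members' median log2 fold change was -1.07 and that of all genes -0.0029. With TACI short, 21 members fell, 7 rose and 4 were not called, beside 62.6% of all genes called, 31.1% lower and 31.5% higher. The libraries of TACI short and control did not overlap for 27 members and for 66.4% of all genes. No member fell 2-fold, and ABCA1 and ABCG1 rose at least that much, where 2.64% of all genes fell and 11.8% rose 2-fold. Here the median was -0.42 for the members and 0.026 for all genes. Both comparisons use the same 3 control libraries.

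**Figure D1:**
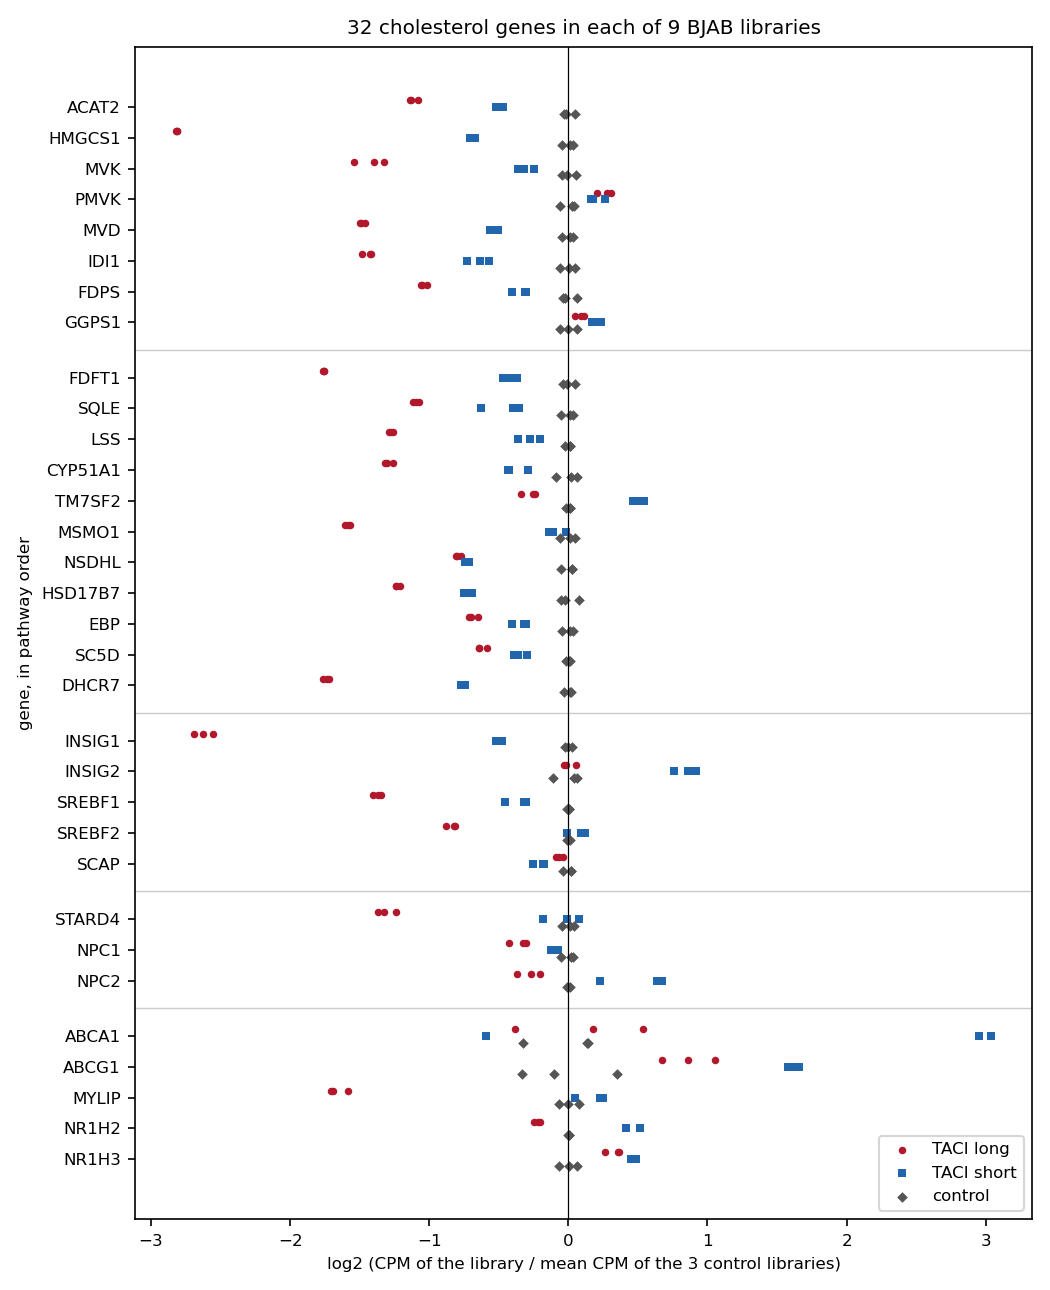
Level of each of the 32 genes in each library, as the log2 ratio of its CPM to the mean CPM of the 3 control libraries, in pathway order (circles TACI long, squares TACI short, diamonds control). Most enzymes sit far to the left in TACI long, with HMGCS1 the lowest at a fitted log2 fold change of -2.81, and in between in TACI short; ABCA1 is high in 2 of the 3 TACI short libraries.

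Summed over the 19 synthesis enzymes, RNA was 1208, 1204 and 1203 CPM in TACI long, 2490, 2443 and 2522 CPM in TACI short and 3447, 3418 and 3425 CPM in control libraries. The groups were far apart and did not overlap: the mean was 35.1% of control in TACI long and 72.5% of control in TACI short. HMGCS1 and FDFT1 together made up 26.2% of this sum in TACI long, 41.5% in TACI short and 44.6% in control. Without both genes the sum stood at 46.8% of control in TACI long and 76.5% in TACI short, so the difference was not limited to the most abundant enzymes. Replicates of an enzyme lay close together, with a median coefficient of variation of 1.79% in TACI long, 3.54% in TACI short and 3.07% in control.

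The steps up to farnesyl diphosphate were taken first. HMGCS1, which makes HMG-CoA, had 126, 126 and 126 CPM in TACI long, 556, 542 and 551 CPM in TACI short and 859, 905 and 893 CPM in control libraries. It was lowest in every TACI long library and intermediate in every TACI short library. The fold change was 7.03-fold lower in TACI long (log2 -2.81 ± 0.04 SE, adjusted p = 4.08e-23) and 1.76-fold lower in TACI short (log2 -0.82 ± 0.04, adjusted p = 7.49e-14, both from the edgeR fit, as is every adjusted p here unless another tool is named). ACAT2, the cytosolic thiolase before HMGCS1, averaged 115 ± 2.54 CPM in TACI long, 178 ± 3.36 CPM in TACI short and 249 ± 7.19 CPM in control (SD, n = 3 each). That is 2.16-fold lower in TACI long and 1.53-fold lower in TACI short. The level of ACAT2 is uncertain, since 43.0% of its exonic bases are shared with a gene on the opposite strand (named SOD2 in GENCODE 29) and the library kit does not keep the strand.

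The mevalonate kinases split. MVK, the first kinase, had 12.8, 14.1 and 14.9 CPM in TACI long, 31.4, 29.8 and 28.9 CPM in TACI short and 38.5, 36.0 and 36.9 CPM in control libraries. It was lower in both lines without overlap, 2.67-fold in TACI long and 1.35-fold in TACI short. PMVK, the next kinase in the chain, had 39.1, 37.2 and 39.8 CPM in TACI long, 38.6, 35.9 and 36.3 CPM in TACI short and 33.0, 30.8 and 32.7 CPM in control libraries. It was the only enzyme that rose with TACI long, by 1.20-fold (log2 0.27 ± 0.05, adjusted p = 0.000253), and it was not called in TACI short (log2 0.07 ± 0.05, adjusted p = 0.254). With column totals in place of edgeR's TMM scaling factors, PMVK was called higher in TACI short as well (log2 0.20, adjusted p = 0.0011). MVD, the decarboxylase after PMVK, fell 2.79-fold in TACI long and 1.59-fold in TACI short, and IDI1, the isomerase of the resulting isoprene unit, fell 2.71-fold in TACI long and 1.70-fold in TACI short.

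Beyond IDI1 the pathway branches. FDPS, which makes farnesyl diphosphate for the sterol branch, averaged 137 ± 2.46 CPM in TACI long, 223 ± 8.87 CPM in TACI short and 282 ± 10.4 CPM in control, a fall of 2.06-fold in TACI long and of 1.38-fold in TACI short. GGPS1, which turns farnesyl diphosphate into the geranylgeranyl anchor of proteins and so leads away from sterols, had 37.1, 36.1 and 37.7 CPM in TACI long, 39.3, 39.4 and 41.1 CPM in TACI short and 36.4, 34.8 and 33.5 CPM in control libraries. It was called in neither line (log2 0.08 ± 0.05, adjusted p = 0.168 in TACI long; log2 0.07 ± 0.05, adjusted p = 0.245 in TACI short), though without TMM factors it was called higher in TACI short (log2 0.20, adjusted p = 0.00071). FDFT1, squalene synthase, commits farnesyl diphosphate to sterols. Within each library, FDFT1 RNA per kilobase of exon was set over that of GGPS1, a ratio that no library scaling can change. It was 3.77 ± 0.0890 in TACI long, 8.82 ± 0.149 in TACI short and 13.5 ± 0.416 in control.

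HMGCS1 and PMVK, the largest fall and the rise among these steps, are shown here by their promoter windows from RefSeq (GRCh38.p14, 250 bases before to 50 after the annotated start, both on the minus strand: HMGCS1 at chr5:43313363-43313662 and PMVK at chr1:154936670-154936969). Capitals mark matches to CCAAT, the box bound by NF-Y, a factor that acts beside SREBPs, on either strand. ATTGG is its reverse complement.
HMGCS1: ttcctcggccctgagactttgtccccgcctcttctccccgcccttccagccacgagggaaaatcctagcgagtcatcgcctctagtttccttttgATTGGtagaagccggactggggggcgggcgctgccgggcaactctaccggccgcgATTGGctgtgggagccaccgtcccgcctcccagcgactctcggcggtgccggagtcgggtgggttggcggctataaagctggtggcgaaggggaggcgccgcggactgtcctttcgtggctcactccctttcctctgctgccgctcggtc
PMVK: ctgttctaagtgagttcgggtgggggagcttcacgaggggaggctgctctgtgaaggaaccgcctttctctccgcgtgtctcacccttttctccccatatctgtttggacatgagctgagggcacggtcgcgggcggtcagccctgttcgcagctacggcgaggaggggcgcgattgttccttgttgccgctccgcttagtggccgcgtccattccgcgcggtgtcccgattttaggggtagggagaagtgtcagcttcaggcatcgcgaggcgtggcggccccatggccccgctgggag
The HMGCS1 window shown held ATTGG beginning at positions -155 and -100 from the start, and the PMVK window held no match to any motif searched. Another HMGCS1 window in the table, at chr5:43313132-43313431, held none either. Such a window was given for 28 members; ACAT2, FDFT1, SQLE and ABCG1 had none. CCAAT was present for 16 of 18 SREBP target genes with a window (88.9%; PMVK and CYP51A1 lacked it), 4 of the other 10 members (40.0%) and 39.7% of all 27305 genes in the table. A match describes letters only: GGPS1, which was not called, also held one.

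From squalene synthesis on, all 11 enzymes fell with TACI long. FDFT1 had 191, 190 and 190 CPM in TACI long, 479, 465 and 499 CPM in TACI short and 665, 626 and 640 CPM in control libraries, again in 3 separate bands. It fell 3.38-fold in TACI long (log2 -1.76 ± 0.05, adjusted p = 3.93e-19) and 1.46-fold in TACI short (log2 -0.55 ± 0.04, adjusted p = 2.62e-10). SQLE, the epoxidase that follows, fell 2.13-fold in TACI long and 33.3% in TACI short, and LSS, which closes the ring to lanosterol, fell 2.41-fold in TACI long and 1.33-fold in TACI short. CYP51A1, the lanosterol demethylase, averaged 10.7 ± 0.231 CPM in TACI long, 20.2 ± 1.12 CPM in TACI short and 26.3 ± 1.42 CPM in control. It fell 2.45-fold in TACI long and 1.42-fold in TACI short, but 78.8% of its exonic bases are shared with LRRD1 on the same strand, so its level is uncertain.

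TM7SF2, a sterol reductase acting after CYP51A1, was the enzyme that moved in opposite directions. Its level was 43.6, 43.3 and 40.7 CPM in TACI long, 72.9, 75 and 71.0 CPM in TACI short and 52.0, 50.9 and 51.9 CPM in control libraries. The TACI long libraries were all below and the TACI short libraries all above control: log2 -0.28 ± 0.05 in TACI long (adjusted p = 2.13e-05) and 0.37 ± 0.05 in TACI short (adjusted p = 1.65e-07). MSMO1, the methylsterol oxidase, had 28.9, 28.6 and 28.2 CPM in TACI long, 79.5, 78.0 and 85.0 CPM in TACI short and 88.6, 86.5 and 82.4 CPM in control libraries. It fell 3.00-fold in TACI long without overlap, while TACI short and control overlapped and differed by 1.16-fold (log2 -0.21 ± 0.05, adjusted p = 0.000472). That smaller difference was not called with column totals (log2 -0.09, adjusted p = 0.0714).

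NSDHL, which acts on the same methyl groups as MSMO1, had 29.2, 28.5 and 28.6 CPM in TACI long, 29.8, 30.2 and 30.4 CPM in TACI short and 50.8, 48.1 and 50.6 CPM in control libraries. Both lines lay at nearly one level below control, 1.73-fold lower in TACI long and 1.81-fold lower in TACI short. HSD17B7, the ketoreductase working with NSDHL, fell 2.34-fold in TACI long and 1.81-fold in TACI short. EBP, a sterol isomerase, averaged 62.1 ± 1.55 CPM in TACI long, 78.8 ± 2.92 CPM in TACI short and 99.9 ± 2.64 CPM in control, a fall of 1.61-fold in TACI long and 1.39-fold in TACI short. SC5D, the desaturase after it, fell 1.54-fold in TACI long and 1.39-fold in TACI short. DHCR7, which reduces 7-dehydrocholesterol, the precursor of both cholesterol and vitamin D, had 67.6, 69.0 and 69.6 CPM in TACI long, 136, 137 and 134 CPM in TACI short and 231, 225 and 233 CPM in control libraries. It fell 3.34-fold in TACI long and 1.84-fold in TACI short (log2 -0.88 ± 0.04, adjusted p = 1.18e-14), the largest fall of any member with the short isoform.

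**Figure D2:**
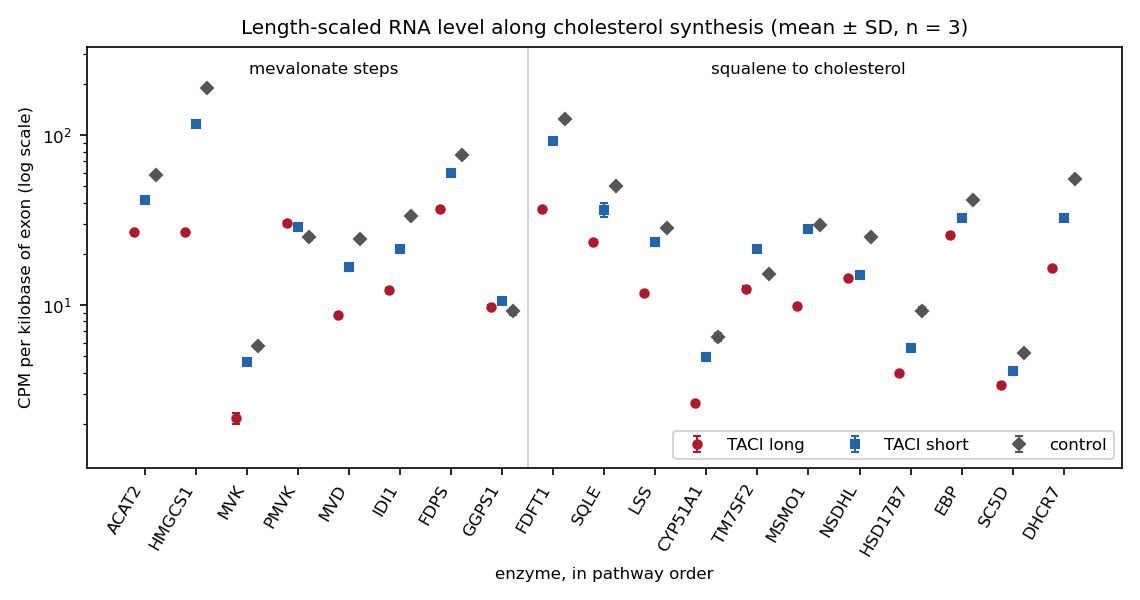
Mean level of the 19 enzymes in CPM per kilobase of exon on a log axis, with the SD over 3 libraries as bars, in pathway order (circles TACI long, squares TACI short, diamonds control). HMGCS1 stands at 26.8 in TACI long, below FDPS, FDFT1 and PMVK, and is the highest enzyme in TACI short at 117 and in control at 188; PMVK and GGPS1 do not fall.

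Per kilobase of exon, the order of the enzymes changed with the long isoform. The length used covers all annotated exons of a gene and not the transcript expressed, so ranks between genes are approximate. Those of ACAT2 and CYP51A1 are also uncertain for the shared bases given above. In TACI long, FDPS at 36.8 and FDFT1 at 36.6 CPM per kilobase led, within the spread of their replicates, followed by PMVK at 30.2, and HMGCS1 came behind them at 26.8, level with ACAT2. In TACI short, HMGCS1 led with a level of 117 CPM per kilobase, before FDFT1 at 92.5, FDPS at 59.96 and ACAT2 at 41.4. The same 4 led in that order in control, at 188, 124, 75.9 and 58.0 CPM per kilobase. The lowest levels were those of MVK, 2.15 CPM per kilobase in TACI long, and of SC5D, 4.10 in TACI short and 5.23 in control.

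The sensing machinery differed gene by gene. INSIG1, the sterol-regulated anchor of SCAP, had 41.7, 39.7 and 37.8 CPM in TACI long, 171, 171 and 176 CPM in TACI short and 244, 249 and 241 CPM in control libraries. It fell 6.15-fold in TACI long (log2 -2.62 ± 0.05, adjusted p = 2.86e-22) and 1.55-fold in TACI short (log2 -0.63 ± 0.04, adjusted p = 1.09e-11), with no overlap between any groups. INSIG2, its paralogue with the same anchoring role, had 7.82, 7.44 and 7.35 CPM in TACI long, 13.6, 14.2 and 12.7 CPM in TACI short and 7.74, 6.96 and 7.84 CPM in control libraries. TACI long and control lay together (log2 0.0047 ± 0.08, adjusted p = 0.972), and TACI short rose 1.64-fold (log2 0.72 ± 0.08, adjusted p = 3.59e-08). INSIG1 RNA was also set over INSIG2 RNA within a library, per kilobase of exon. This ratio was 5.71 ± 0.119 in TACI long, 13.8 ± 0.978 in TACI short and 35.4 ± 2.96 in control.

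SREBF1, the gene of SREBP-1 and itself an LXR target, had 65.9, 68.7 and 67.8 CPM in TACI long, 142, 140 and 127 CPM in TACI short and 175, 173 and 175 CPM in control libraries. It fell 2.59-fold in TACI long and 1.40-fold in TACI short. SREBF2, the gene of SREBP-2, had 254, 266 and 265 CPM in TACI long, 508, 498 and 465 CPM in TACI short and 464, 466 and 471 CPM in control libraries. It fell 1.78-fold in TACI long (log2 -0.84 ± 0.04, adjusted p = 2e-13), while TACI short overlapped control (log2 -0.06 ± 0.04, adjusted p = 0.258) with a sign that turned under upper-quartile factors (0.024) and column totals (0.071). Without TACI short replicate 1 it was called lower (log2 -0.11, adjusted p = 0.0157). The ratio of SREBF1 to SREBF2 RNA within a library was taken per kilobase of exon. It was 0.243 ± 0.00146 in TACI long, 0.261 ± 0.00313 in TACI short and 0.352 ± 0.00327 in control. SCAP, the escort, had 112, 111 and 115 CPM in TACI long, 104, 104 and 98.6 CPM in TACI short and 119, 114 and 119 CPM in control libraries. It was not called in TACI long, where it overlapped control (log2 -0.06 ± 0.04, adjusted p = 0.246), and fell 1.26-fold in TACI short (log2 -0.33 ± 0.04, adjusted p = 4.86e-07).

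The promoter windows of INSIG1 and SREBF2, one steeply and one mildly lower in TACI long, are shown for their motifs (RefSeq, GRCh38.p14, plus strand, chr7:155297628-155297927 for INSIG1 and chr22:41832855-41833154 for SREBF2). Capitals mark TCACNCCAC, a single fixed form of the sterol response element bound by SREBPs, and CCAAT or its reverse complement ATTGG.
INSIG1: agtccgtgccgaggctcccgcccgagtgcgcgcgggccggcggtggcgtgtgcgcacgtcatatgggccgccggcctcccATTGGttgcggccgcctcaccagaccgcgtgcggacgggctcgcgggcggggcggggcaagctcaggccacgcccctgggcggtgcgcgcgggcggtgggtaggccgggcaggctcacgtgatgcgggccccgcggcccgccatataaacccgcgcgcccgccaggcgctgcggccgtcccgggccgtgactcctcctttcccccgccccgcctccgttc
SREBF2: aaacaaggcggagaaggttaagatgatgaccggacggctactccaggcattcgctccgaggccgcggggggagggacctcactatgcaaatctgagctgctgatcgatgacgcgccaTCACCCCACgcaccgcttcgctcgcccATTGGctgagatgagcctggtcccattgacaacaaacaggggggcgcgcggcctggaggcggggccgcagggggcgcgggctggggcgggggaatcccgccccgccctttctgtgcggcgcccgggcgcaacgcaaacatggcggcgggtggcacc
SREBF2 held TCACCCCAC beginning at position -133 and ATTGG at -106. It was the 1 member of 28 with an exact match to TCACNCCAC, which 1.39% of all 27305 genes with windows held on either strand. The match was found in 0 of 18 SREBP target genes with a window. Sterol response elements of other letters were not searched, so this does not show that these windows lack SREBP sites. INSIG1 held ATTGG at -170. For the LXR element, only an exact direct repeat of AGGTCA with 4 bases between was searched. It was found on either strand in 0 of 28 members and in 0.0256% of all genes. Repeats that depart from these letters were not searched, so the absence of so rare a match does not show that these windows lack LXR sites. Windows of this length do not reach distant elements.

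Of the 3 carriers inside the cell, all fell in TACI long, and 2 fell and 1 rose in TACI short. STARD4, a soluble sterol carrier and SREBP target, had 12.9, 11.8 and 12.2 CPM in TACI long, 26.8, 32.1 and 30.2 CPM in TACI short and 29.4, 31.3 and 30.6 CPM in control libraries. It fell 2.47-fold in TACI long, whereas TACI short overlapped control, with a 1.12-fold fall (adjusted p = 0.0118) that was not called with column totals (adjusted p = 0.611). NPC1, the lysosomal membrane protein that exports cholesterol taken up with lipoproteins, fell 1.28-fold in TACI long and 1.18-fold in TACI short. NPC2, its soluble partner in the lysosome, had 28.5, 27.3 and 25.4 CPM in TACI long, 38.6, 51.1 and 52.5 CPM in TACI short and 32.7, 32.7 and 33.2 CPM in control libraries. It fell 1.21-fold in TACI long (adjusted p = 0.0362) and rose 1.32-fold in TACI short (adjusted p = 0.00469), most in replicates 2 and 3. The fall was not called without TACI long replicate 2, TACI short replicate 2 or control replicate 1, at an adjusted p of 0.0525 to 0.09, nor with DESeq2 size factors, upper-quartile factors, column totals or a filter of 1 CPM in 3 libraries (adjusted p of 0.0541 to 0.086), with a log2 fold change of -0.27 to -0.29 in each. With TACI short replicate 1 alone the rise was not called (log2 0.14, adjusted p = 0.0607). The myeloid markers given above are high in the same 2 libraries, and their part in the rise was not tested.

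**Figure D3:**
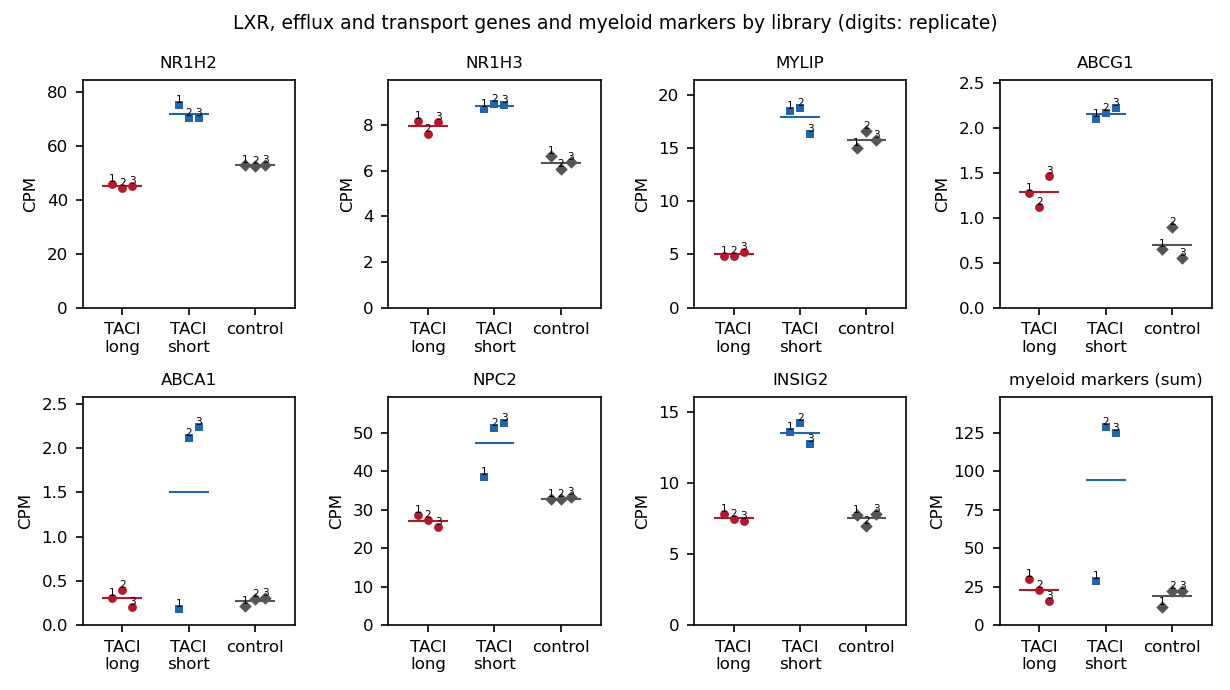
CPM in each library (digits give the replicate, lines the mean of 3) for LXR, efflux and transport genes, INSIG2 and the sum of 12 myeloid markers; every axis starts at 0. MYLIP is at 4.84 to 5.26 CPM in TACI long, below every TACI short and control library; ABCA1, NPC2 and the myeloid sum share the split between TACI short replicate 1 and replicates 2 and 3, which ABCG1, NR1H2, NR1H3 and INSIG2 do not show.

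The LXR and efflux genes did not move as one. NR1H2, which encodes LXR beta, had 45.9, 44.4 and 45.3 CPM in TACI long, 75.2, 70.4 and 70.3 CPM in TACI short and 52.9, 52.6 and 52.9 CPM in control libraries. It fell 1.17-fold in TACI long (adjusted p = 0.00062) and rose 1.25-fold in TACI short (adjusted p = 4.51e-06). NR1H3, which encodes LXR alpha and is an LXR target in human cells, had 8.18, 7.63 and 8.13 CPM in TACI long, 8.71, 8.93 and 8.89 CPM in TACI short and 6.65, 6.06 and 6.37 CPM in control libraries. It rose in both lines without overlap, 1.26-fold in TACI long (adjusted p = 0.00208) and 1.27-fold in TACI short (adjusted p = 0.000982).

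ABCG1, which exports cholesterol to high-density lipoprotein, had 1.28, 1.12 and 1.46 CPM in TACI long, 2.09, 2.16 and 2.22 CPM in TACI short and 0.652, 0.895 and 0.557 CPM in control libraries. Its RNA was scarce but ordered, with every TACI long library above control and every TACI short library above both. The rise was 1.83-fold in TACI long (log2 0.88 ± 0.21, adjusted p = 0.00121) and 2.81-fold in TACI short (log2 1.49 ± 0.21, adjusted p = 1.15e-06). ABCA1, which exports cholesterol to lipid-poor apolipoprotein, had 13, 18 and 9 counts in TACI long, 8, 85 and 112 counts in TACI short and 10, 13 and 14 counts in control libraries. TACI short replicate 1 lay below the controls and replicates 2 and 3 far above, so the 4.99-fold rise rests on those 2 libraries (log2 2.32 ± 0.84, adjusted p = 0.0495). With replicate 1 alone the log2 fold change was -0.68 (adjusted p = 0.383), with limma-voom adjusted p = 0.296, with the replicate number as a block adjusted p = 0.06 (log2 2.10), and without any single library other than TACI short replicate 1 adjusted p was 0.0756 to 0.139. The myeloid markers follow the same split; their part was not tested.

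MYLIP, a ubiquitin ligase that marks lipoprotein receptors for degradation and is switched on by LXR, had 4.84, 4.89 and 5.26 CPM in TACI long, 18.5, 18.7 and 16.3 CPM in TACI short and 15.02, 16.6 and 15.7 CPM in control libraries. It fell 3.15-fold in TACI long (log2 -1.66 ± 0.08, adjusted p = 1.47e-14), the opposite direction to ABCG1 in the same libraries, and overlapped control in TACI short (log2 0.05 ± 0.07, adjusted p = 0.56; called higher with column totals, adjusted p = 0.0316). The ratio of MYLIP to ABCG1 RNA within a library, per kilobase of exon, was 7.92 ± 0.808 in TACI long, 16.7 ± 1.62 in TACI short and 46.9 ± 9.75 in control.

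Set side by side, the SREBP targets and the LXR targets differed in how uniform they were. Over all genes tested, 25.2% were called higher and 25.9% lower in TACI long, and 31.5% higher and 31.1% lower in TACI short. Of 21 SREBP target genes (the 19 enzymes, INSIG1 and STARD4), 19 fell and 1 rose in TACI long, with a median log2 fold change of -1.27, and 18 fell and 1 rose in TACI short, with a median of -0.51. Of 5 LXR target genes (ABCA1, ABCG1, MYLIP, SREBF1 and NR1H3), 2 rose and 2 fell in TACI long, with a median of 0.16. That median is the value of the scarce ABCA1, which was not called (log2 0.16 ± 0.96, adjusted p = 0.913). In TACI short, 3 rose and 1 fell, with a median of 0.35, and with replicate 1 as the lone TACI short library 2 rose and 1 fell, with a median of 0.14. SREBF1 is driven by both systems and fell in both lines. The difference between the 2 sets was not tested, and 5 LXR target genes are too few to set their split apart from the shares of all genes.

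Directly compared, TACI short cells held more RNA of most members than TACI long cells. Of 32 members, 26 were higher, 2 lower and 4 not called in TACI short, beside 68.8% of all genes called, 35.2% higher and 33.6% lower. Libraries of both lines did not overlap for 30 members and for 71.6% of all genes. The members' median log2 fold change was 0.67 and that of all genes 0.046. By at least 2-fold, 6 members were higher and 0 lower, where 16.1% of all genes were higher and 3.84% lower. The 6 were HMGCS1 at 3.99-fold (log2 2.00 ± 0.04, adjusted p = 5.64e-21), INSIG1 at 3.97-fold, MYLIP at 3.26-fold (log2 1.70 ± 0.08, adjusted p = 3.58e-15), MSMO1 at 2.59-fold, FDFT1 at 2.31-fold and STARD4 at 2.20-fold. Of these only MYLIP is no SREBP target.

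Not every member was higher in TACI short. SCAP was 1.21-fold lower in TACI short than in TACI long (log2 -0.27 ± 0.04, adjusted p = 7.53e-06) and PMVK 1.14-fold lower (log2 -0.19 ± 0.05, adjusted p = 0.003), although its CPM overlapped between both lines. The PMVK call was lost with upper-quartile factors (adjusted p = 0.0534) and with column totals (adjusted p = 0.198). GGPS1, NSDHL and NR1H3 differed little, with log2 fold changes of -0.02 ± 0.05, -0.06 ± 0.05 and 0.02 ± 0.08, and ABCA1 was not called despite its size (log2 2.16 ± 0.83, adjusted p = 0.0559). Without TACI short replicate 1 it was called (log2 2.66, adjusted p = 8.11e-11), and with that replicate alone its sign turned (log2 -0.85). SC5D (log2 0.14 ± 0.05, adjusted p = 0.0232) and NPC1 (log2 0.12 ± 0.05, adjusted p = 0.0417) were higher by small margins: both calls were lost when any 1 library except TACI short replicate 2 was left out, at an adjusted p of 0.0635 to 0.135 for SC5D and 0.0945 to 0.367 for NPC1. Leaving out TACI long replicate 2 did the same to ABCG1 (log2 0.50 against 0.62, adjusted p = 0.0534).

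**Figure D4:**
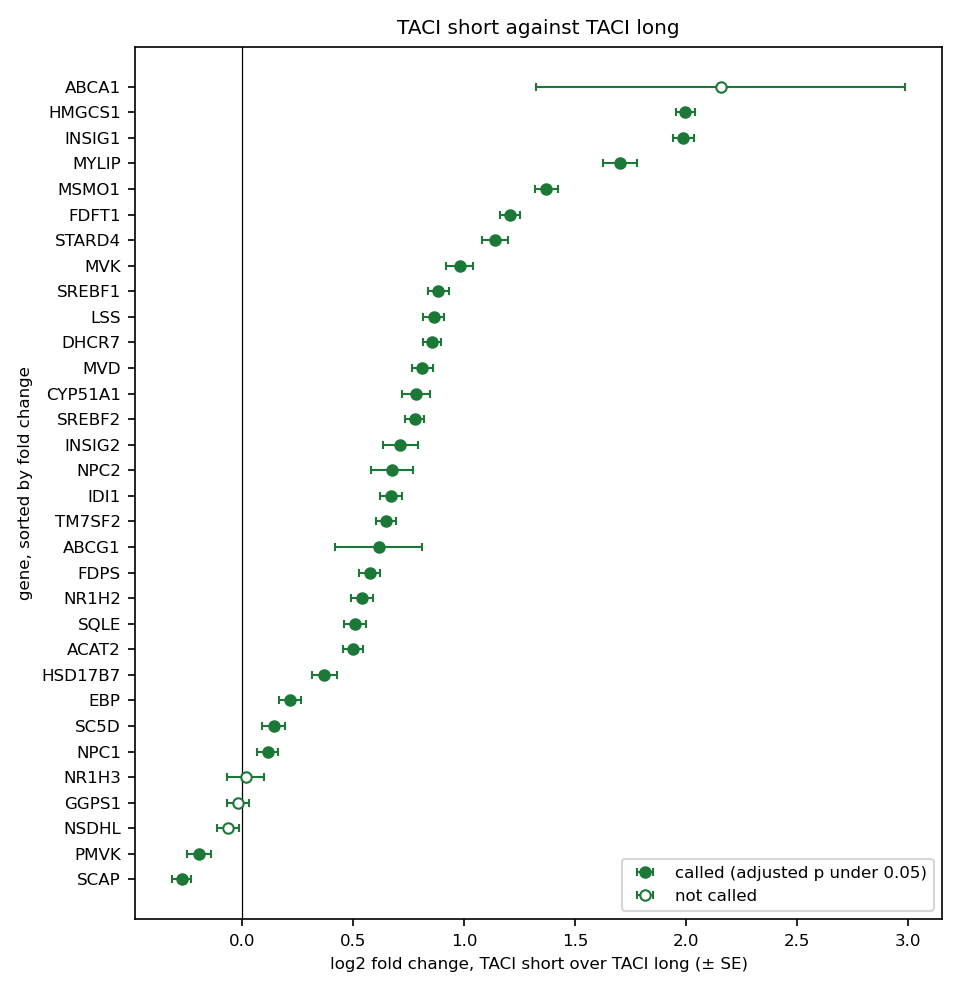
Log2 fold change of each member in TACI short over TACI long with its standard error, sorted by size (filled points called at an adjusted p under 0.05, open points not called). HMGCS1 and INSIG1 lie near 2.00 with short error bars, ABCA1 at 2.16 with a long one, and SCAP and PMVK below 0.

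The mean TMM factor of TACI short libraries was 1.094 times that of control libraries, so CPM over column totals read higher in TACI short than the fitted fold changes say. With column totals the median of all genes moved to 0.15 for TACI short against control and to 0.18 for TACI short against TACI long. On that scale 10 members rose and 19 fell in TACI short against control, beside 41.2% of all genes higher and 22.7% lower. With replicate 1 as the lone TACI short library, assumed to vary like the other groups, 6 members rose and 21 fell, beside 27.0% and 24.8% of all genes.

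Genes around the pathway were read in the same fit, where 25.2% of all genes rose and 25.9% fell in TACI long, and 31.5% rose and 31.1% fell in TACI short. Of 9 fatty acid genes driven by SREBP-1, 7 fell in TACI long and 0 rose, and 6 fell and 1 rose in TACI short. SCD, the stearoyl-CoA desaturase, had 217 ± 1.00 CPM in TACI long, 706 ± 3.39 CPM in TACI short and 1082 ± 31.0 CPM in control, 4.97-fold lower in TACI long and 1.68-fold lower in TACI short. FASN, fatty acid synthase, fell 2.74-fold in TACI long and 2.06-fold in TACI short, and FADS1, a desaturase of polyunsaturated fatty acids, 10.6-fold in TACI long and 5.46-fold in TACI short. FADS1 was scarce in both lines, with 0.898 to 1.34 CPM in TACI long and 2.23 to 2.80 CPM in TACI short, against 11.7 to 12.5 CPM in control.

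Of 12 genes of the machinery that cuts SREBPs and degrades sterol-regulated proteins, 8 rose and 3 fell in TACI long, and 2 rose and 8 fell in TACI short, beside those shares of all genes. PAQR3, a Golgi anchor of SCAP, rose 1.40-fold in TACI long and 1.21-fold in TACI short. UBE2G2, a ubiquitin-conjugating enzyme of protein degradation at the endoplasmic reticulum, fell 1.09-fold in TACI long and 1.46-fold in TACI short.

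Storage and transport genes gave 7 higher and 4 lower of 13 in TACI long, and 2 higher and 7 lower in TACI short. Of all genes, 51.1% were called in TACI long and 62.6% in TACI short, so the 9 of 13 called in TACI short were near that share. SOAT1, which esterifies cholesterol for storage, rose 1.42-fold in TACI long and was not called in TACI short (log2 -0.11 ± 0.05, adjusted p = 0.0869). GRAMD1A, a carrier of cholesterol from the plasma membrane, fell 1.74-fold in TACI long and 1.33-fold in TACI short, while its paralogue GRAMD1C was not called in TACI long and rose 2.94-fold in TACI short. TMEM97, a regulator of NPC1, fell 1.32-fold in TACI long and 1.56-fold in TACI short. Of 13 genes that use isoprenoids, 5 rose and 2 fell in TACI long, and 2 rose and 9 fell in TACI short; the 7 of 13 called in TACI long were near the share of all genes. RABGGTB, a subunit of the enzyme that prenylates Rab proteins, fell 1.46-fold in TACI long and 1.22-fold in TACI short. PGGT1B, a subunit of an enzyme that attaches geranylgeranyl groups, rose 1.32-fold in TACI long and was not called in TACI short. NUS1, needed for dolichol synthesis, and PDSS1, which makes the tail of coenzyme Q, were not called in TACI long and fell 1.61-fold and 1.65-fold in TACI short.

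Among 7 further LXR and retinoid X receptor genes, 2 rose and 0 fell in TACI long, and 2 rose and 2 fell in TACI short, where 4 of 7 called is near the 62.6% of all genes. PLTP, a phospholipid transfer protein and LXR target, had 6.88, 7.54 and 7.18 CPM in TACI long, 10.8, 12.1 and 10.4 CPM in TACI short and 4.52, 4.29 and 4.41 CPM in control libraries. It rose 1.63-fold in TACI long and 2.30-fold in TACI short, without overlap and without the split of replicates seen for ABCA1. LPCAT3, an LXR target that remodels phospholipids, was not called in TACI long and fell 1.38-fold in TACI short, and RXRB, a partner of the LXRs, rose 1.08-fold in TACI long and fell by 0.14 on the log2 scale in TACI short, where its CPM overlapped control and no fall was called with column totals (adjusted p = 0.872) or upper-quartile factors (adjusted p = 0.211). TTC39B, the other gene that rose in TACI short, had 0.383, 2.18 and 2.32 CPM there, 0.255 to 0.439 CPM in TACI long and 0.217 to 0.390 CPM in control libraries. Its 4.54-fold rise (adjusted p = 0.0223) rests on TACI short replicates 2 and 3 and was not called with replicate 1 alone (log2 0.15, adjusted p = 0.827). Of 6 enzymes that make or clear oxysterols, 3 passed the filter on low counts. CYP46A1, a cholesterol hydroxylase, rose 3.33-fold in TACI short and was not called in TACI long, and HSD3B7, of bile acid synthesis, fell 1.68-fold in TACI long and was not called in TACI short. CYP27A1, a sterol hydroxylase, had 0.158, 1.14 and 1.48 CPM in TACI short, 0.185 to 0.307 CPM in TACI long and 0.115 to 0.279 CPM in control libraries. Its 4.74-fold rise in TACI short (adjusted p = 0.0322) rests on replicates 2 and 3, as for ABCA1.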

How the data were processed

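Polyadenylated RNA of sorted cells was prepared with Nextera XT libraries, per the labels' protocols; the kit does not keep the strand. The authors deposited raw counts per gene; FastQC, STAR 2.4.0h, HTSeq and hg38 are named in the submitters' processing notes, and the annotation release is not given in the sources used here. Gene names came from an ID table (56410 of 57500 IDs matched). CPM is the count over its column total. All 9 libraries were fitted together with edgeR 4.0.16 in R 4.3.3: filterByExpr (minimum count 10, minimum total 15), TMM factors, robust quasi-likelihood test, Benjamini-Hochberg adjustment over 16672 genes, with 6 residual degrees of freedom and a common biological coefficient of variation of 0.0792. The fit was tested on simulated data. Standard errors are approximate, from the F statistic. No library was a copy of another (between replicates, chi-square per degree of freedom 2.448 to 18.18). The members, lists, motifs and alternatives were chosen with earlier results of these data known. The text names all 32 members, TNFRSF13B, the most abundant marker of another cell type and, of each list of neighbouring genes, up to 2 called genes with the lowest adjusted p in each comparison with control; some genes that this rule takes are not reported here. CD163, C1QA, C1QB, MARCO and TTC39B were named after their values were seen. Deviations from the group mean correlated at 0.297 to 0.594 between same-numbered TACI short and control libraries, with numbers taken from the sample titles. Control replicate 3 and TACI short replicate 2 correlated at 0.426, and control replicate 2 and TACI short replicate 3 at 0.298. The values therefore do not show pairing by number. In the other pairs of groups, same-numbered libraries did not all correlate above 0. Promoters came from RefSeq (GRCh38.p14). Other settings tried were column totals, upper-quartile and DESeq2 scaling, DESeq2 1.42.0, limma-voom 3.58.1, other filters, the compared groups alone, a replicate block, glmTreat at 1.5-fold, TACI short replicate 1 alone and each library left out.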

Additional observations from a re-analysis of the deposited data

How the results depend on the processing

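Of 84 called member results (32 members in 3 comparisons), 75 kept call and direction in all 20 other settings except the test against a 1.5-fold change (glmTreat), and 1, ABCA1 in TACI short against control, changed direction. glmTreat called 0 members higher and 19 lower in TACI long against control, 1 higher and 5 lower in TACI short against control, and 13 higher and 0 lower in TACI short against TACI long. In the last comparison 1 member was lower with upper-quartile factors, with column totals and with TACI short replicate 1 alone. With each library left out, 3 to 3 members were higher and 24 to 25 lower in TACI long against control, 6 to 7 higher and 21 to 22 lower in TACI short against control, and 23 to 26 higher and 2 to 2 lower in TACI short against TACI long. The 1 CPM filter also called PMVK (adjusted p = 0.046) and GGPS1 (adjusted p = 0.0417) higher in TACI short against control. The STARD4 fall in TACI short was not called with upper-quartile factors, column totals or a filter of 1 CPM in 3 libraries. Shares of all genes called with glmTreat, with each library left out and with the replicate block are not given here. Those counts therefore show only how the calls of members depend on the setting.

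Signs turned almost only where values near 0 had not been called. For GGPS1, TACI short against TACI long gave 0.072 with upper-quartile factors, 0.11 with column totals (called, adjusted p = 0.0251), 0.019 with the 1 CPM filter and, with single libraries left out, -0.055 to 0.013 (above 0 without TACI short replicate 2), and NSDHL gave 0.026 and 0.066 with the first 2 of these. INSIG2, TACI long against control, gave -0.0027 with upper-quartile factors and -0.054 to 0.034 with single libraries left out (below 0 without control replicate 2 and, at -0.025, TACI long replicate 1). SREBF2, TACI short against control, gave 0.024, 0.071 and 0.033 with upper-quartile factors, column totals and TACI short replicate 1 alone. ABCA1 gave -0.060 to 0.37 in TACI long against control with single libraries left out (below 0 without TACI long replicate 2), and with TACI short replicate 1 alone -0.68 against control and -0.85 against TACI long. MYLIP gave -0.0054 in TACI short against control without TACI short replicate 1. NR1H3, TACI short against TACI long, gave -0.0056 with no filter, and -0.034 to 0.032 with single libraries left out (below 0 without TACI long replicate 2, control replicate 2, at -0.0020, and TACI short replicate 1, at -0.0018). The cause was not tested.

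Same-numbered libraries deviated together in TACI short and control (correlations 0.297 to 0.594). They did not in TACI long and control (-0.267 to 0.207) or in TACI short and TACI long (-0.487 to 0.243). Differently numbered TACI short and control libraries reached 0.426, so the numbers could not be read as pairs there either. With the replicate block, 3 members were higher and 24 lower in TACI long against control, 6 and 21 in TACI short against control, and 26 and 2 in TACI short against TACI long; ABCA1 in TACI short (adjusted p = 0.06) and NPC2 in TACI long (adjusted p = 0.0875) were not called, and the block changed no other call of a member. Counting error bears mainly on ABCA1 and ABCG1, whose levels were lowest.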
